A study of Rattus norvegicus with 15 samples.

Results

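The genes described here are Mog, Mag, Mobp, Cnp, Ugt8, Enpp2, Mal, Cldn11 and Opalin, a set of myelin and oligodendrocyte genes examined in rat brain after vagus nerve stimulation (VNS). They were chosen by symbol, through the RefSeq records mapped to these names, and the choice followed from their lower hippocampal levels in earlier work on the same libraries. They are 9 of 18278 transcript records, with 1 record per gene. VNS was given for 30 min a day over 4 days, and the control rats had a sham device. For hippocampus there were 3 control and 4 VNS libraries, made from ribosome-depleted total RNA of rats tested for 10 min in a novelty preference task from day 2 to day 4. For cortex there were 4 of each, made from polyA-selected RNA. The sources used here give no strain, sex or age, and they do not say whether libraries share litters or days, so p-values measure the spread between these libraries, which may be technical.

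Oligodendrocytes wrap axons in myelin, a compacted membrane that insulates the axon and speeds conduction. The sheath is built from a few abundant membrane proteins and from galactolipids, and it is held together by adhesion proteins and tight junction strands. Oligodendrocytes arise from precursor cells that persist in the adult brain, and the transcription factors Sox10 and Myrf drive the genes of the mature cell. Myelin is dense in white matter tracts and in the thalamus and brainstem and sparser in hippocampal grey matter.

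Hippocampal libraries held 16728486 to 51463555 counts, of which ribosomal and 7SL RNA records took 17.2% to 74.3%, the most in VNS library 3. Values are counts scaled to TMM-adjusted library size (CPM). Neurod6, which encodes a factor of excitatory neurons in the forebrain, stood at 0.65 CPM in control library 1 and 1.05 CPM in control library 2, against 81.4 CPM in control library 3 and at least 58.9 CPM in each VNS library. Slc17a7, a vesicular glutamate transporter gene of cortex and hippocampus, stood at 237.2 CPM and 4.09 CPM in the same 2 controls and at 1006 CPM or more in the other 5 libraries. Its counterpart of thalamus and brainstem, Slc17a6, stood at 379.7 and 347.4 CPM in these 2 and at 10.0 to 66.8 CPM elsewhere. Prkcd, a kinase gene of the thalamus, reached 794.0 CPM in control library 1 and 6.19 to 41.2 CPM elsewhere. The defining forebrain marker was thus near 0 in control libraries 1 and 2, and control library 3 was the one control with Neurod6 of 20 CPM or more. Differences of the 9 genes are therefore given against all 3 controls and against control library 3 alone or without control libraries 1 and 2. Values of other genes are against all 3 controls unless stated.

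The upstream sequences of these genes are shown first. RefSeq promoter sequence (GRCr8) was found for 7 of the 9 genes, and Mog and Enpp2 had no entry. The 250 bases before the start of each gene were searched on both strands for the letters bound by Myrf (CTGGCAC or CTGGTAC), for Sox letters (ACAAAG or ACAATG) and for the E-box CAGCTG. Myrf letters stood in 5 of the 7, against 5.48% of 33469 rat promoters of the same length. The stretch around each of the 5 matches is given on the strand of the gene, with 20 bases on either side where they lie before the start, and capitals mark the match, which reads GTGCCAG or GTACCAG where it lies on the other strand.
Mag (chr1:95291112-95291158, minus strand): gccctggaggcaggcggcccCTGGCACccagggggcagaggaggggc
Cnp (chr10:86011360-86011406, plus strand): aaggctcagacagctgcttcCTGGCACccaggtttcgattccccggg
Mal (chr3:135341523-135341569, minus strand): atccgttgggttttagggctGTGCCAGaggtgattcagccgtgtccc
Cldn11 (chr2:114149633-114149679, minus strand): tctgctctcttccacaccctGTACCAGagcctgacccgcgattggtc
Opalin (chr1:249858191-249858227, minus strand): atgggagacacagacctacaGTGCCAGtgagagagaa
The match lay 94 to 88 bases before the start in Mag, 124 to 118 in Cnp, 126 to 120 in Mal, 120 to 114 in Cldn11 and 17 to 11 in Opalin. Mal is on the minus strand in GRCr8, but its counted record is on the plus strand in rn5. The reason was not examined. Mobp and Ugt8 held no Myrf letters in this window, and Ugt8 held none of the motifs searched.

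Mobp differed from the others by repeats of the Sox letters. Its upstream sequence held ACAAAG 8 times on the reverse strand, where it reads CTTTGT, and 8 was the most found in any of the 33469 promoters. Sox letters occurred at least once in 25.3% of promoters and 5 times or more in 0.0269%. They were found in 4 of the 7 genes, namely Mag, Mobp, Cnp and Opalin, and the E-box in Cnp and Opalin, against 12.0% of promoters. The 150 bases of Mobp farthest from the start hold all 8 matches, in capitals, within short T-rich repeats.
Mobp (chr8:128746982-128747131, plus strand): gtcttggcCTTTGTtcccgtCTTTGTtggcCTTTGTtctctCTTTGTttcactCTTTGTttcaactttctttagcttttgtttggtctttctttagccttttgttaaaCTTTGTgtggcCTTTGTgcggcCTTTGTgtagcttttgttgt
A match describes letters only, and no factor binding was measured.

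All 9 records passed the filter on low counts in hippocampus. The fitted log2 fold change of VNS against all 3 controls was below 0 for 9 of 9, where 50.8% of all 12728 tested records were below 0. The median was -0.73 over the 9 and -0.01 over all records. These contrasts chose the genes, so no test is given for them. For reference, edgeR's quasi-likelihood test called 0% of the 12728 records at an adjusted p under 0.05, with 1537 at an unadjusted p under 0.05, while DESeq2 called 17 and limma-voom 0. Against control library 3 alone the mean of the VNS libraries was also lower for 9 of 9 genes, where 47.2% of records were lower, with a median log2 ratio of -0.32 against 0.01 over all records. In these bulk libraries, fewer oligodendrocytes, less RNA per oligodendrocyte and a difference in the tissue sampled cannot be told apart.

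The proteins of the sheath come first. Mobp encodes a small basic protein on the cytoplasmic face of compact central myelin and lies on chromosome 8 from 128025193 to 128051045 in rn5. Its controls 1, 2 and 3 stood at 811.1, 612.5 and 435.3 CPM, against 233.3, 360.6, 239.3 and 514.0 CPM in VNS libraries 1 to 4. VNS library 4 lay above control library 3, and the other 3 VNS libraries lay below every control. The control mean was 619.6 ± 188.0 CPM (SD, n = 3) and the VNS mean 336.8 ± 131.9 CPM (SD, n = 4), a log2 fold change of -0.88 (SE 0.33), and the VNS mean was 77.4% of control library 3.

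Opalin encodes a transmembrane protein confined to oligodendrocytes of the central nervous system (chromosome 1, 267766690 to 267784339). Its values were 166.1, 130.2 and 99.2 CPM in the 3 controls and 59.0, 83.4, 50.01 and 133.8 CPM in the 4 VNS libraries. VNS library 4 stood above control libraries 2 and 3, so the groups overlapped. Against all controls, Opalin differed by -0.69 on the log2 scale (SE 0.34), and the log2 ratio to control library 3 was -0.28.

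Mal, a tetraspan proteolipid of membrane sorting in myelin (chromosome 3, 127099278 to 127123286), was the member with the smallest difference from all 3 controls. It was at 330.6, 327.0 and 295.5 CPM in controls and at 141.8, 257.7, 106.7 and 357.3 CPM after VNS. The controls were close to each other (317.7 ± 19.3 CPM, SD, n = 3), whereas the VNS libraries spanned 3.35-fold, and the highest of all 7 values was VNS library 4. The log2 fold change was -0.56 (SE 0.38), and the log2 ratio to control library 3 was -0.45. Control library 1 was 1.12 times control library 3 for Mal and 1.47 to 2.18 times for the other 8 genes.

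Cldn11, the claudin that forms the tight junction strands between myelin lamellae (chromosome 2, 135520050 to 135533355), was at 340.8, 306.5 and 231.3 CPM in controls. The VNS libraries stood at 127.7, 186.8, 107.7 and 282.3 CPM. Only the last of these overlapped the controls. Cldn11 had a log2 fold change of -0.73 (SE 0.33), with a VNS mean of 176.1 ± 78.4 CPM (SD, n = 4) that was 76.2% of control library 3. Cldn11 is also made by meningeal fibroblasts. The summed level of 12 marker records of those cells was 47.1 to 61.5 CPM in controls and 42.1 to 79.2 CPM after VNS, and their part in the Cldn11 difference was not tested.

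**Figure D1:**
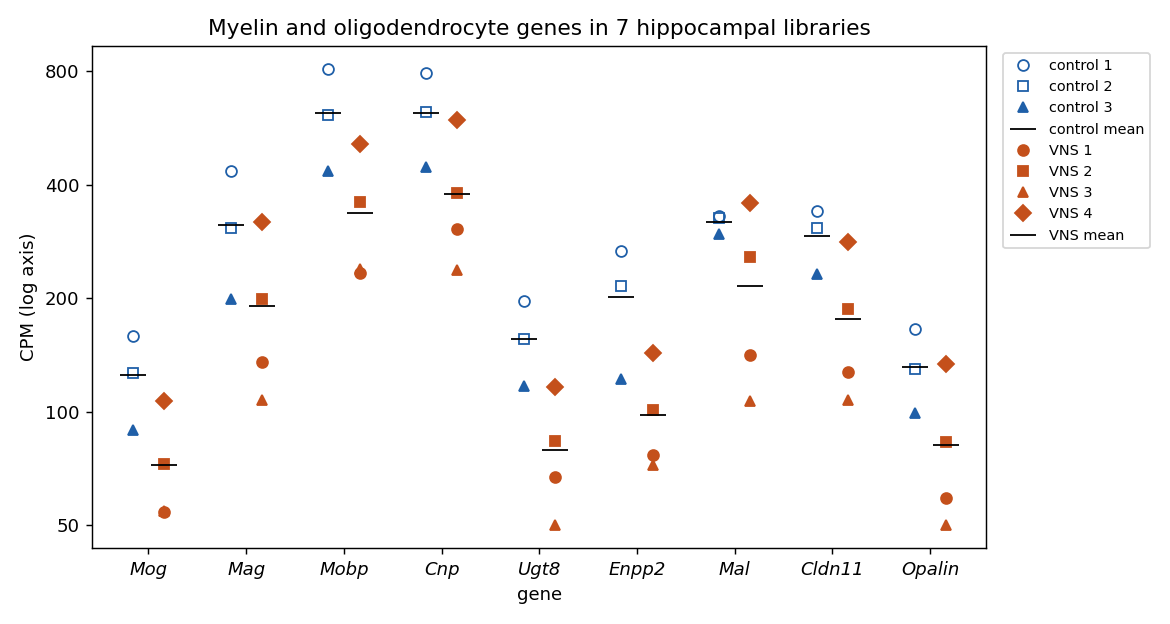
CPM of each of the 9 genes (log axis) in the 3 control and 4 VNS hippocampal libraries, with group means as dashes; open symbols are control libraries 1 and 2. VNS library 4 was the highest VNS library for 9 of 9 genes, as for 20.1% of records. For 8 of 9 it was above control library 3, and the share of all records for this was not counted.

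The adhesion proteins sit at the sheath's inner and outer faces. Mag is the sialic acid-binding glycoprotein of the membrane next to the axon (chromosome 1, 90500932 to 90516246), and its controls stood at 433.9, 306.9 and 199.3 CPM. After VNS it was at 135.9, 198.9, 107.5 and 318.4 CPM. VNS library 2 was nearly level with control library 3, and VNS library 4 exceeded control libraries 2 and 3. The log2 fold change was -0.72 (SE 0.40) against all controls. Against control library 3 the log2 ratio was -0.07, and it was 0.06 without VNS library 1 and 0.13 without VNS library 3, so the direction for Mag against that control depended on which VNS libraries were included.

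Mog, the glycoprotein of the outermost lamella (chromosome 20, 4044677 to 4054909), was at 159.2, 126.4 and 89.7 CPM in controls and at 54.3, 72.6, 54.7 and 106.6 CPM after VNS. Again VNS library 4 alone lay within the range of the controls. The fitted difference for Mog was -0.79 on the log2 scale (SE 0.29), and -0.32 in the fit without control libraries 1 and 2. The Mog record partly overlaps that of Zfp57 on the opposite strand. Hippocampal reads were counted without strand, so reads in the 94 bases shared by the 2 spans cannot be assigned to one of them.

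Enzymes made up the rest. Ugt8, which makes galactosylceramide, the main galactolipid of myelin (chromosome 2, 248998871 to 249072741), was at 196.1, 156.1 and 116.7 CPM in controls and at 67.1, 83.9, 50.2 and 116.3 CPM after VNS. It was the 1 member of 9 in which all VNS libraries lay below all controls, where 4.61% of records did and 9.28% did not overlap in either direction, and VNS library 4 and control library 3 were nearly level there. The log2 fold change was -0.97 (SE 0.29), and the VNS mean of 79.4 ± 28.2 CPM (SD, n = 4) was 68.0% of control library 3, the lowest such share of the 9.

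Enpp2 encodes autotaxin, the secreted enzyme that makes lysophosphatidic acid (chromosome 7, 95120407 to 95202176). Enpp2 was at 266.5, 215.3 and 122.4 CPM in controls and at 76.8, 101.0, 72.4 and 143.0 CPM after VNS. Control library 3 lay closer to VNS library 4 than to the other 2 controls. The log2 fold change of -1.03 (SE 0.32) was the largest of the 9 and was -0.32 without control libraries 1 and 2. Choroid plexus also makes Enpp2. Its marker transthyretin, Ttr, was at 20.2, 0.43 and 0.79 CPM in controls 1 to 3 and at 0.35 to 3.08 CPM after VNS. The summed level of 12 choroid plexus records was 37.3, 35.4 and 5.01 CPM in controls and 2.03 to 9.47 CPM after VNS. Single records carried the high sums, with Ttr at 20.2 CPM in control library 1 and Otx2, named here after its values were seen, at 25.3 CPM in control library 2. The part of choroid plexus in the Enpp2 difference was not tested. Lpar1, the receptor for lysophosphatidic acid on oligodendrocytes, had a log2 fold change of -0.76 (SE 0.27, edgeR adjusted p = 0.402).

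Cnp, the cyclic nucleotide phosphodiesterase of the cytoplasmic channels in myelin (chromosome 10, 88284045 to 88290604), was at 789.8, 624.0 and 445.5 CPM in controls. In VNS libraries 1 to 4 Cnp stood at 304.2, 379.7, 237.0 and 594.5 CPM. VNS library 4 was close to control library 2. The fitted log2 difference for Cnp was -0.71 (SE 0.33), and the log2 ratio to control library 3 was -0.23.

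**Figure D2:**
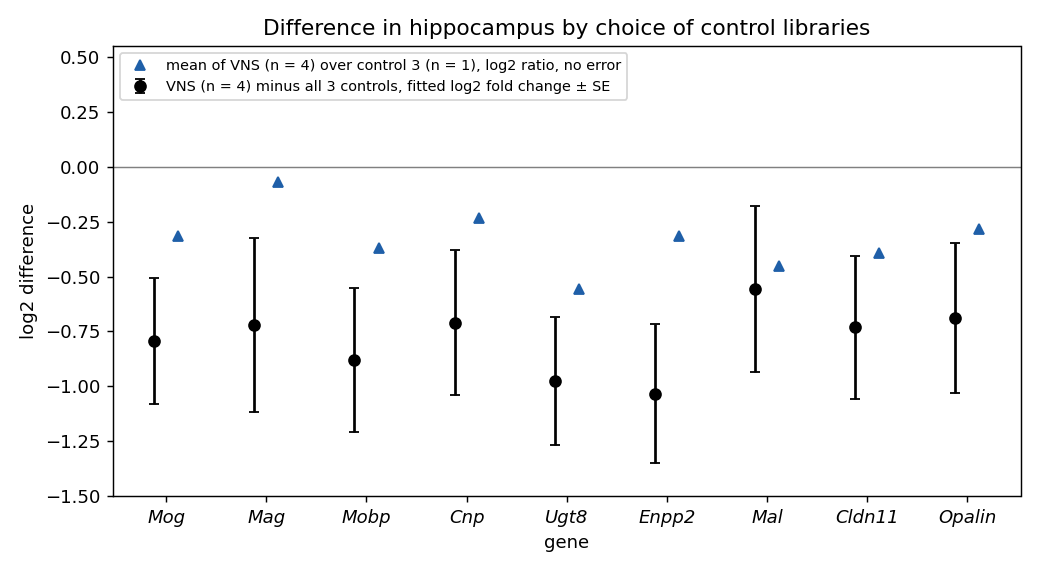
Log2 difference of each gene in hippocampus against all 3 controls (circles, fitted value ± SE) and against control library 3 alone (triangles, ratio of means, 1 control library and no error). All 18 points lie below 0, and against control library 3 they run from -0.56 (Ugt8) to -0.07 (Mag).

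Across libraries the 9 genes varied together. Control library 1 was the highest of the 7 for 8 of 9 genes, where 21.3% of records had their highest value there, and VNS library 3 was the lowest for 7 of 9. The share of all records with their lowest value in VNS library 3 was not counted. Control libraries 1 and 2 both exceeded control library 3 for 9 of 9, as did 38.0% of records. The summed level of the 9 genes was 3494, 2805 and 2035 CPM in controls 1 to 3 and 1200, 1725, 1026 and 2566 CPM in VNS libraries 1 to 4. VNS library 4 was thus between control libraries 2 and 3. Over the 7 libraries, the 36 pairs of genes had a median Pearson r of 0.97 in log2 CPM (0.82 for Enpp2 and Mal to 0.997 for Mog and Mobp), and over the 5 libraries without controls 1 and 2 the median was also 0.97. These points share libraries, depth and region makeup.

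Ratios within a library do not depend on scaling and show where the genes differed from each other. The ratio of Mobp to Mog counts stayed between 4.29 and 5.09 in all 7 libraries. In contrast, the ratio of Mal to Enpp2 counts was 1.24 and 1.52 in control libraries 1 and 2, 2.41 in control library 3 and 1.47 to 2.55 after VNS. Mal made up 9.46% of the summed CPM of the 9 genes in control library 1 and 14.5% in control library 3, and Enpp2 7.63% and 6.02%. No gene's share separated the VNS libraries from the controls (9 of 9 overlapped).

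Per kilobase of record the order of levels was Cnp highest and Ugt8 lowest in each of the 7 libraries. In controls Cnp was at 269.2 ± 74.8, Mobp at 182.9 ± 55.5, Cldn11 at 158.5 ± 30.3, Mal at 139.8 ± 8.48 and Mag at 126.6 ± 47.4 CPM per kilobase (SD, n = 3). The neighbours from Mobp to Mag lay within each other's spread. Below them were Mog at 79.4 ± 22.1, Enpp2 at 74.5 ± 27.0, Opalin at 48.9 ± 12.4 and Ugt8 at 44.9 ± 11.4 CPM per kilobase, where Mog and Enpp2, and Opalin and Ugt8, were within their spread.

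The other genes of the lineage were taken from lists. Those named below were chosen in part by the smallest p in their list. Of the 4 lists for mature cells, none had a member at an adjusted p under 0.05 in edgeR's quasi-likelihood test (smallest 0.402). Among sheath and adhesion proteins, 14 of 17 tested records had lower values after VNS (median log2 fold change -0.58). The cytoskeletal protein gene Ermn was at -0.86 (SE 0.30). Higher values were found for Omg (0.11, SE 0.25) and for Nfasc records (0.12, SE 0.28, and 0.21, SE 0.38). Mbp, myelin basic protein, has 6 overlapping records, of which 5 were at 0 counts and 1 at 12.0 to 28.1 CPM, so these values do not give its level.

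Among myelin lipid enzymes, 9 of 11 had lower values (median -0.51). Those on the same pathway as Ugt8 were Fa2h, which hydroxylates its fatty acids (-0.60, SE 0.32), and Gal3st1, which makes sulfatide from its product (-0.56, SE 0.27). Aspa, which releases acetate for myelin lipids, was at -0.54 (SE 0.31) and at 0.11 against control library 3, the ceramide synthase gene Cers2 at -0.51 (SE 0.20) and the desaturase gene Scd2 at -0.49 (SE 0.21). Fads1 (0.01, SE 0.18) and Sgms1 (0.02, SE 0.16) had slightly higher values. None of the 11 passed (edgeR adjusted p from 0.402 to 0.991).

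Of 8 transcription factors, 7 had lower values (median -0.55). They included Sox10 (-0.64, SE 0.33), Myrf (-0.59, SE 0.29), Olig2 (-0.57, SE 0.26), Olig1 (-0.38, SE 0.28, and 0.02 against control library 3) and Sox8 (-0.53, SE 0.18). St18 had a higher value (0.33, SE 0.22). Receptors, junction proteins and soluble enzymes of mature oligodendrocytes had lower values in 15 of 15 (median -0.83), where the iron carrier gene Tf was at -1.14 (SE 0.45), Lgi3 at -1.14 (SE 0.34), the chaperone gene Cryab at -0.94 (SE 0.29) and the orphan receptor gene Gpr37 at -0.71 (SE 0.27).

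Without control library 3, 1377 of 12931 records passed, 4.41% of records on the lower side. On that side were 3 of 17 sheath records (Bcas1, Ermn and Cntn2), 0 of 11 lipid enzyme records and 0 of 8 transcription factor records. The receptor list had 5 of 15 there (Car2, Gjb1, Kcnj10, Qdpr and Lgi3, of which Kcnj10 is also an astrocyte channel). The named records had log2 fold changes from -1.52 to -0.77. In the same fit 7 of 12 thalamic and brainstem marker records passed with lower values and 9 of 10 forebrain neuron marker records with higher values. The fit rests on the 2 control libraries without forebrain markers. Without control libraries 1 and 2, edgeR's test called 0 of 13111 records, with an unadjusted p under 0.05 for 105, and the medians of the 4 lists were -0.24, -0.03, -0.10 and -0.22 in the order above, against 0.01 over all records and -0.32 for the 9 genes.

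Genes of earlier stages were also taken from lists. Of 9 tested precursor records, 7 had lower values with a median of -0.06. Without control libraries 1 and 2, 7 of 9 were lower with a median of -0.10. The 4 lists for mature cells had medians from -0.24 to -0.03 in that setting. Pdgfra, the growth factor receptor that defines precursors, was at a control mean of 89.1 ± 5.87 CPM (SD, n = 3) and a VNS mean of 88.0 ± 12.1 CPM (SD, n = 4), with little difference (log2 fold change -0.02, SE 0.15, edgeR adjusted p = 0.962). The proteoglycan gene Cspg4 was at -0.02 (SE 0.17), Matn4 at -0.67 (SE 0.33) and Sox6 at -0.26 (SE 0.13). Newly formed oligodendrocytes were represented by 6 tested genes, with 3 lower and a median of 0.02, but 5 of 6 were lower without control libraries 1 and 2, with a median of -0.16. In that list Gpr17 was at 0.18 (SE 0.16) and at -0.05 against control library 3, Neu4 at -0.39 (SE 0.22) and Fyn at 0.24 (SE 0.14). No record of either list passed, and whether these lists differ from the 9 genes was not tested.

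Ratios of counts within a library were also taken. The summed counts of the 9 genes were 7.06, 6.07 and 3.75 times those of the precursor list in control libraries 1, 2 and 3, and 2.27, 3.22, 2.01 and 5.09 times in VNS libraries 1 to 4. Here too VNS library 4 lay between control libraries 2 and 3, and the groups overlapped.

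**Figure D3:**
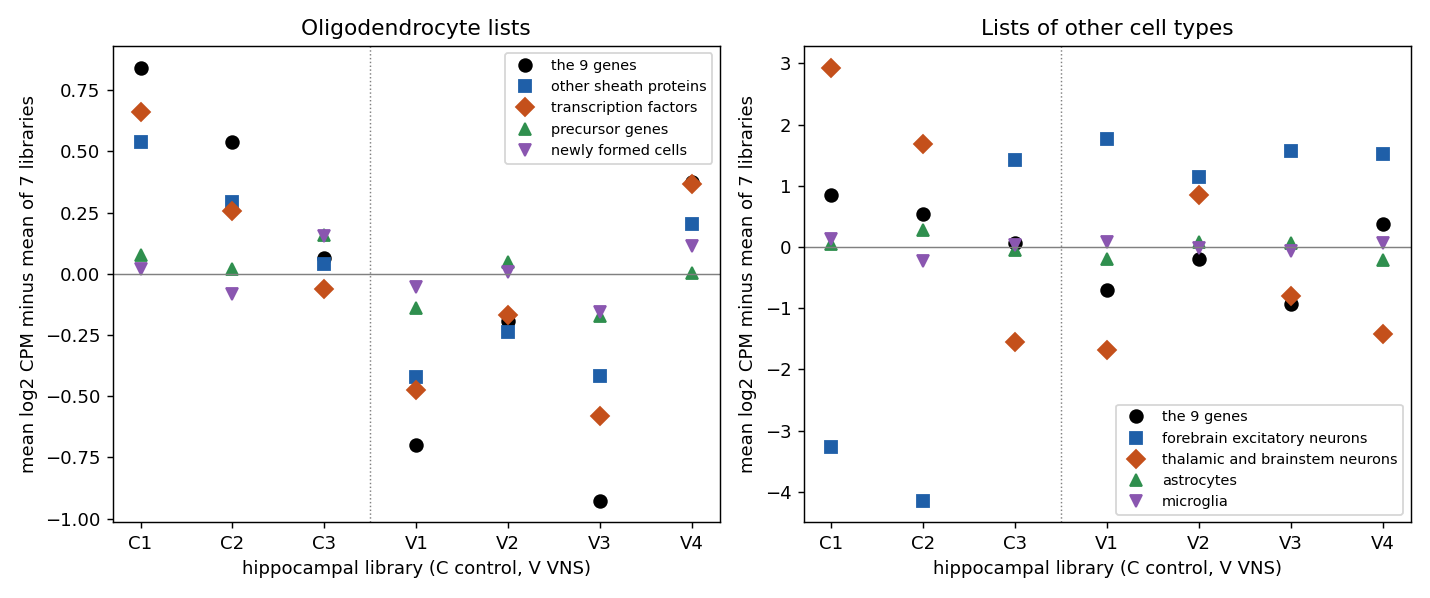
Mean log2 CPM of gene lists in each hippocampal library, relative to the mean of the 7 libraries, for oligodendrocyte lists (left) and for other cell types (right, wider axis). The 9 genes run from 0.84 in control library 1 to -0.93 in VNS library 3, precursor genes stay between -0.17 and 0.16, and forebrain neuron markers are at -3.26 and -4.14 in control libraries 1 and 2.

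Markers of other cells also differed between the controls, and not all in the direction of the 9 genes. On the scale relative to the mean of the 7 libraries, forebrain excitatory neuron markers were at -3.26, -4.14 and 1.42 in control libraries 1 to 3 and at 1.15 to 1.77 after VNS. Thalamic and brainstem neuron markers were at 2.93, 1.69 and -1.55 in the controls and at 0.84 in VNS library 2 and -1.68 to -0.80 in the other 3. The 9 genes themselves were at 0.84, 0.54 and 0.06 in the controls and at -0.70, -0.19, -0.93 and 0.37 after VNS. Among the 4 VNS libraries, which all held forebrain markers, the thalamic list was highest in library 2 and the 9 genes in library 4. VNS library 3, lowest for the 9 genes, had 74.3% ribosomal and 7SL counts. VNS library 1, next lowest for the 9 genes, had 17.2%, the least of the 7, and VNS libraries 2 and 4 had 39.4% and 40.4%. The part of region makeup and of RNA composition in the differences of the 9 genes was not tested.

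Other records were ranked by how closely they followed the mean log2 CPM of the 9 genes over the 7 hippocampal libraries, as a description with no test. Among 8688 records at 5 CPM or more on average, the 10 most alike included Kif1c, Lzts2, Adpgk, Septin4, Pllp, Galnt6, Tmem88b, Tprn and S1pr5 (Pearson r from 0.988 to 0.997). Kif1c, a kinesin motor gene, was at 266.5, 237.6 and 188.3 CPM in controls and at 129.3, 172.0, 118.1 and 209.4 CPM after VNS, in the same order of libraries as the summed 9 genes. Of the 100 most alike, 21 belonged to the 4 lists of mature oligodendrocytes, which held 49 of the 8688. That number was 13 with Spearman's rho and 13 without control libraries 1 and 2. Over 7 libraries rho takes few values, and records tied at the 100th place (rho 0.964). The number with rho thus depends in part on the order of tied records. These correlations share libraries, depth and region makeup.

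Cortex was the contrast that did not choose the genes. Cortex libraries held 329130 to 435296 counts, and reads were counted with strand option 1 from a stranded kit. The 3.79% of records that overlap one on the opposite strand took 33.4% to 38.3% of these counts, against 3.91% to 17.5% in hippocampus. The 9 genes had other proportions in cortex than in hippocampus. Mog held 55.3% of their summed cortex counts and 4.47% of their summed hippocampal level, whereas Mag held 1.53% in cortex and 11.5% in hippocampus. Zfp57, which overlaps Mog on the other strand, had 285 to 659 counts per cortex library. The tissues also differ in library type, and the part of strand counting in these proportions was not tested, so a cortex value is given for the record as counted.

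All 9 records reached 10 reads in at least 1 cortex library, the lowest maximum being 11 reads for Mag, and 6 of 9 passed the filter. Of those 6, 0 passed edgeR's quasi-likelihood test (adjusted p = 0.9998 for each), as against 0.0257% of 3884 records, and 0 had an unadjusted p under 0.05. VNS values were lower for 2 of the 6, where 52.1% of records were lower, and the groups overlapped for each of the 9, where 2.29% of records did not overlap.

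Mog had 295, 312, 238 and 169 counts in cortex control libraries 1 to 4 and 295, 184, 363 and 201 in VNS libraries 1 to 4. These are 739.3 ± 193.9 and 748.3 ± 230.3 CPM (SD, n = 4 each), and the log2 fold change was 0.02 with 2 SE on either side reaching from -0.44 to 0.48. Mal had 63, 111, 57 and 60 counts in controls and 108, 45, 53 and 84 after VNS, a log2 fold change of 0.02 (-0.55 to 0.60). For neither record did the groups separate.

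Mobp had 28, 92, 41 and 42 counts in controls and 43, 46, 34 and 49 after VNS, with a log2 fold change of -0.19 (-0.79 to 0.40). Cnp had 32, 32, 26 and 31 counts in controls but 45, 5, 14 and 31 after VNS (-0.35, from -1.26 to 0.55), so the VNS libraries lay on both sides of the controls. Cldn11 (0.18, from -0.68 to 1.05) and Opalin (0.52, from -0.59 to 1.64) had 50 counts or fewer in each library. At this depth the 2 SE on either side held a 2-fold lower value for Cnp and a 2-fold higher value for Cldn11 and Opalin. Leaving out 1 library moved Cnp from -0.92 (without VNS library 1) to -0.01 (without VNS library 2), and Opalin from 0.17 (without control library 2) to 1.28 (without control library 1, adjusted p = 0.965 in edgeR's quasi-likelihood test). Ugt8 with 86 counts in the 8 libraries together, Mag with 57 and Enpp2 with 45 fell below the filter. Whether the VNS difference of any of the 9 genes differs between cortex and hippocampus was not tested.

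**Figure D4:**
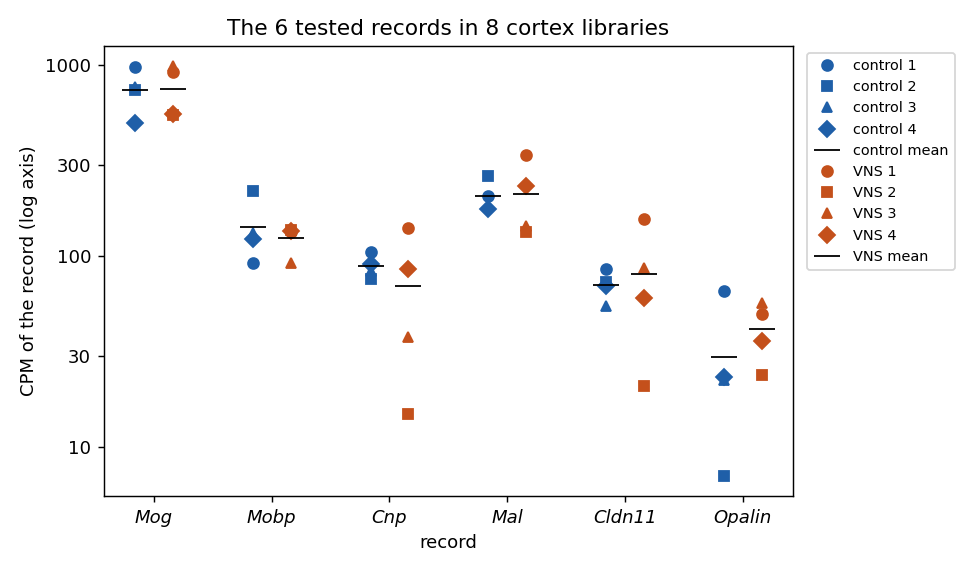
CPM of the 6 tested records (log axis) in 4 control and 4 VNS cortex libraries, as counted with strand option 1, with group means as dashes. Control and VNS libraries overlap for each record, and Mog is the highest at 492.6 to 977.5 CPM.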

How the data were processed

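RNA sequencing reads of 15 rat libraries had been counted by the authors; what they deposited is a raw count for each RefSeq record. Per the file headers, featureCounts 1.4.6-p2 was run with strand option 1 for cortex and no strand option for hippocampus. Bowtie2, Trimmomatic, edgeR, SAMtools 0.1.19, Subread, FastQC 0.10.1 and build rn5 are listed in the submitters' processing notes. Record coordinates are rn5. Symbols came from a RefSeq table of GRCr8 (17339 of 18278 records matched), used for names only, and promoters from its sequence table. No column was left unmapped. The header sets no option for reads that overlap several records. A cortex column was matched to its sample despite an extra letter in its name.

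The tests were run with edgeR 4.0.16 under R 4.3.3. A record was tested if it passed filterByExpr (minimum count 10, minimum total 15), with TMM scaling and a fit within each tissue by the quasi-likelihood test (two-sided, Benjamini-Hochberg over all tested records, threshold 0.05). Log2 CPM used a prior count of 2. The fits were also run on simulated counts, with each record at the same mean in all control libraries. Controls of unlike region makeup were therefore not simulated. Alternatives were no filter, upper-quartile scaling, size factors of DESeq2, DESeq2 1.42.0 itself, limma-voom (limma 3.58.1), counts per symbol, no ribosomal or 7SL RNA records, no control libraries 1 and 2, and each library left out. The 9 genes, the 15 other lists, the motifs and the alternatives were chosen with earlier results of these data known. Named genes were the 9, the 10 most alike, fixed lineage and region markers, the 2 smallest p per list, and list members called in any fit; some of these are not reported here.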

Additional observations from a re-analysis of the deposited data

Results flagged for a closer look

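For Mobp in cortex, VNS library 3 stood at 91.6 CPM, while the other 3 VNS libraries lay at 133.5 to 136.8 CPM. The gap of the lowest library to the next, divided by the range of the group, exceeded the 95% critical value of Dixon's test. It was the 1 such case among 22 groups of 4 libraries examined, and chance alone gives about 1 in 20. The value rests on 34 counts.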

How the results depend on the processing

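The median log2 fold change of the 9 genes in hippocampus was below 0 in each of the 14 other settings, from -1.06 without VNS library 4 to -0.56 without VNS library 3 among fits that left out 1 library, and -0.32 without control libraries 1 and 2. Against control library 3 the median ran from -0.63 without VNS library 4 to -0.20 without VNS library 3. The number of hippocampal records called was 0 in the other settings except DESeq2, with 17 (none of them in an oligodendrocyte list), and without control library 3, with 1377, so leaving out 1 library gave 0 to 1377. In cortex 1 record was called, against 5 with no filter, 0 with limma-voom and 0 to 4 when 1 library was left out. The 4 were called without control library 1; the call was lost without any other control library, VNS library 1 or VNS library 4. None of the 9 genes was called in cortex in any setting run for them. Of 240 values of single genes in other settings, 226 kept their direction and moved by less than the spread between libraries, 3 moved further and 11 changed sign. The 3 were Mog (-0.32), Mag (-0.07) and Enpp2 (-0.32) without control libraries 1 and 2. The changes of sign came from leaving out 1 library. Over such fits Mag against control library 3 ran from -0.43 to 0.13, and in cortex Mog ran from -0.14 to 0.20, Mal from -0.28 to 0.20, Mobp from -0.32 to 0.11 and Cldn11 from -0.32 to 0.51, while Cnp (-0.92 to -0.01) and Opalin (0.17 to 1.28) kept their sign. Opalin had an unadjusted p of 0.041 in edgeR's test without control library 1. The cause was not tested. The 21 oligodendrocyte genes among the 100 most alike became 13 with Spearman's rho and 13 without control libraries 1 and 2. Records tied in rho at the 100th place, so the number with rho depends in part on their order. No paired analysis was possible because the labels give no replicate numbers shared between groups. In cortex 3 of 9 records had too few counts to test. The part of depth, strand counting and library type in these low counts was not tested.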

Other observations

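Genes of large axons, which myelin surrounds, had their own values in hippocampus. Of 6 such genes, 6 had lower values after VNS (median log2 fold change -0.54), and none passed edgeR's quasi-likelihood test (adjusted p from 0.402 to 0.919). Without control library 3, 2 of the 6 passed that test with lower values. Nefh, the heavy neurofilament subunit of large axons, was at 599.4, 323.2 and 99.8 CPM in control libraries 1 to 3 and at 116.7 to 141.3 CPM after VNS (log2 fold change -1.40, SE 0.48). Ina, another neurofilament subunit, was at -0.67 (SE 0.29). Against control library 3 alone these were at 0.38 for Nefh and 0.01 for Ina. Without control libraries 1 and 2, 1 of the 6 was lower and the median was 0.23. The 9 myelin genes had a median of -0.32 in that setting. They were chosen in part on that contrast, so setting them beside the axon genes is not a test.

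Lists of other cell types had these values in hippocampus. Of 9 tested astrocyte marker records 6 had lower values (median -0.50), among them Aldoc (-0.63, SE 0.24) and, in the other direction, 1 of 3 Slc1a2 records (0.89, SE 0.38). Of 10 microglia markers 4 were lower (median 0.05), with C1qb at 0.27 (SE 0.13) and Aif1 at -0.27 (SE 0.19). Of 10 endothelial records 9 were lower (median -0.33), with 1 of 2 Flt1 records at -0.47 (SE 0.15) and Ocln at -0.46 (SE 0.16). Of 10 meningeal fibroblast records 4 were lower (median 0.04), with Dcn at 0.94 (SE 0.29) and Lum at 1.63 (SE 0.58). Of 7 Schwann cell records 6 were lower (median -0.24), with Drp2 at 0.42 (SE 0.23) and Ngfr at -0.91 (SE 0.56). Of 10 choroid plexus records 10 were lower (median -1.99), with Clic6 at -2.71 (SE 0.96) and Kl at -2.25 (SE 0.89), both under 5 CPM. Without control libraries 1 and 2, 4 of these 10 were lower (median 0.49), and against control library 3 Clic6 was at 0.12 and Kl at 0.78. Of 10 forebrain neuron markers 0 were lower (median 1.68), with Nrgn at 1.83 (SE 0.86) and Neurod1 at 1.74 (SE 0.997), and of 12 thalamic and brainstem markers 12 were lower (median -2.48), with Slc17a6 at -2.86 (SE 0.87) and Patj at -2.42 (SE 0.78). Without control libraries 1 and 2, 2 of the 12 were lower (median 0.80) and Patj was at 0.87 against control library 3, while 2 of the 10 forebrain markers were lower (median 0.17). In that setting the medians were -0.04 for astrocyte, -0.05 for microglia, -0.003 for endothelial, 0.22 for meningeal and -0.15 for Schwann cell records, and against control library 3 Drp2 was at -0.08 and Ngfr at 0.39. With all 3 controls no record of these lists passed edgeR's quasi-likelihood test, where the lowest adjusted p was 0.402. Without control library 3, records passed with higher values in the forebrain (9 of 10), meningeal (1 of 10) and Schwann cell (1 of 7) lists. Lower values passed for 7 of 12 thalamic and brainstem and 2 of 10 choroid plexus records. Of 9 astrocyte records 1 passed as lower and 1 as higher, and 0 microglia or endothelial records passed.

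Mag and Cnp share a longer run around their Myrf letters, CCTGGCACCCAGG, which occurs on either strand in 4 of 33469 rat promoters. The run was noticed after the sequences were seen, and no binding was measured.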
